A study of Mus musculus with 10 samples.

Results

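The 10 transcripts described here encode Eef1a1, Eef1b2, Eef1d, Eef1g, Eef2, Tpt1, Pabpc1, Npm1, Naca and Rack1, and they are the classic TOP mRNAs whose products are not ribosomal proteins. They were chosen by name, and all 10 were found among the 14534 coding transcripts of the 15269 listed transcripts. Ribosome footprints and RNA reads came from CGR8 cells, an embryonic stem cell line derived from the mouse strain 129 and grown without feeder cells. Footprints were sequenced from cells that received no drug (control) and from cells that received DMDA-PatA (1 µM, 10 min), harringtonine (2 µg/ml, 10 min) or puromycin (0.2 mg/ml, 20 min). There were 2 libraries for each condition and 2 further libraries of whole transcriptome reads from untreated cells. The solvent DMSO was brought to the same amount in all cultures, and all results come from this single line. DMDA-PatA is an analogue of the marine compound pateamine A, which acts on the RNA helicase eIF4A, a factor that scanning ribosomes need. Harringtonine blocks elongation and stalls ribosomes in part at start codons, while ribosomes further along can run off. The authors found it not specific for start sites, as its peaks also lay elsewhere, among them in the Eef2 5' UTR. Puromycin enters the nascent peptide chain and releases it.

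TOP mRNAs begin with a cytosine followed by a run of pyrimidines, the 5' terminal oligopyrimidine motif that gives them their name. The motif places their translation under the control of the mTOR kinase and of the cap-binding protein LARP1, so that cells make ribosomes and translation factors together when nutrients allow it. Eef1a1, Eef1b2, Eef1d and Eef1g encode the subunits of elongation factor 1, which delivers aminoacyl-tRNA to the ribosome, and Eef2 encodes the factor that moves the ribosome by a codon. Pabpc1 binds the poly(A) tail, Rack1 sits on the small ribosomal subunit, Naca is part of the nascent polypeptide-associated complex, Npm1 is a nucleolar chaperone of ribosome assembly and Tpt1 is the translationally controlled tumour protein.

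The windows around the annotated start sites are shown because the motif lies at the first base of the mRNA. The RefSeq promoter table for GRCm38.p6 held 6 of the 10 genes, and Eef1d, Eef1g, Pabpc1 and Npm1 had no entry. Each window has the 10 bases before the start site and the 20 bases from it on, 5' to 3' on the strand of the gene. Capitals mark the longest run of a C followed by at least 4 bases that are each C or T and that begins within 10 bases of the start site. Only the strand of the gene was searched. The start sites are those of RefSeq, which for Eef1b2 and Tpt1 lie downstream and for Naca upstream of the start of the listed transcript.
Rack1, chr11:48800350-48800379, plus strand: gccgCTCTTTCTTTTTCTCCacagggtcgt
Eef1a1, chr9:78481705-78481734, minus strand: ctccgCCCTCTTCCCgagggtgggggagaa
Naca, chr10:128035336-128035365, plus strand: tcgttCTCTTaaagaggaaacccggacgcc
Eef1b2, chr1:63176821-63176850, plus strand: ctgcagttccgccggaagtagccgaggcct
Eef2, chr10:81176621-81176650, plus strand: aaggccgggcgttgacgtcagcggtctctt
Tpt1, chr14:75845246-75845275, plus strand: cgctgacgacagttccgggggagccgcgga

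The Rack1 run had 16 bases and spanned the annotated start site, which itself was a C at the head of 10 pyrimidines. It was 1 of 6 with the pattern exactly at the annotated start. The pattern stood at the annotated start of 2.51% of all 32851 promoters in the table and of 20.6% of the 68 promoters of cytosolic ribosomal proteins. Within 10 bases of the start it was found in 3 of the 6, namely Rack1, Eef1a1 and Naca, against 30.7% of all promoters and 54.4% of those of ribosomal proteins. The Eef1b2, Eef2 and Tpt1 windows held no such run that begins within 10 bases of the annotated start, and nothing more follows from this.

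The listed transcripts lie in GRCm38 as follows. Eef1a1 runs from 78478449 to 78481724 on chromosome 9, with 8 exons and an ORF of 1386 nt. Eef1b2 runs from 63176825 to 63180486 on chromosome 1, with an ORF of 675 nt, and Eef1g from 8967041 to 8978479 on chromosome 19, with 1311 nt. Eef1d and Pabpc1 are both on chromosome 15, from 75895490 to 75909335 with 1980 nt and from 36595661 to 36608973 with 1908 nt. On chromosome 10, Eef2 runs from 81176631 to 81182498 with an ORF of 2574 nt and Naca from 128035635 to 128048637 with 6561 nt. On chromosome 11, Npm1 runs from 33152287 to 33163206 with 876 nt and Rack1 from 48800360 to 48806434 with 951 nt. Tpt1 runs from 75845093 to 75848415 on chromosome 14 and has the shortest ORF, 516 nt. For Naca and Eef1d the listed ORF is that of a long isoform, and reads on shorter isoforms count only where they share exons with it. The Naca 5' UTR is listed with 340 nt, whereas the transcript of that name in GENCODE M21 has 51 nt, so what this region held is less certain than for the other members.

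Several members have processed pseudogenes, and reads with more than 1 match on the genome had been left out by the authors. The share of 30-base words of an ORF that also lie elsewhere in the genome was therefore counted, with a word over an exon junction taken as ambiguous when the genome held it at all. It was 100% for Tpt1, 95.3% for Eef1g, 88.9% for Eef1a1 and 86.8% for Npm1. Pabpc1 had 51.5%, Eef2 30.0%, Eef1b2 25.9% and Eef1d 18.4%, while Naca had 8.56% and Rack1 7.16%. The median over 14232 coding transcripts was 1.60%, and 13.0% of them had more than 10% of ambiguous words. In the 5' UTRs the share was 34.1% for Eef1a1, 15.2% for Npm1, 10.4% for Eef2 and at most 9.09% for the other members. The ORF counts of Tpt1, Eef1g, Eef1a1 and Npm1 thus rest on few positions and are uncertain as levels. How far this moved a value of these members was not tested.

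The control libraries held 9559519 and 11161453 reads on coding transcripts, the drug libraries between 1027314 and 2802597 and the transcriptome libraries 25508180 and 59271162. All 8 embryonic stem cell markers looked up had control footprints, from a mean of 221 for Tdgf1 to 12115 for Dppa5a. Of 10 markers of other cell types, Sox17 and Sox1 were under 10 on average, but the fibroblast gene Col1a2 had 2847 and the mesoderm gene T 636. The summed level of the latter list was 4641 and 3745 in the control footprint libraries, against 39341 and 36052 for the stem cell markers. In the transcriptome libraries the sums were 32251 and 31351, against 32696 and 29409 for the stem cell markers. Col1a2 alone had 28772 and 27783 there. The part of the other cell types in the results was not tested. The authors scaled the footprint libraries to a spike-in RNA, so a normalized footprint has the same meaning in each condition as far as the spike-in holds. Libraries came from whole cultures, where fewer translating cells and fewer footprints in each cell cannot be told apart.

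Rack1 had the highest listed footprint density of the 10 in the control, with 43894 and 40474 normalized footprints per kilobase of ORF. Eef1b2 followed with 25160 and 21735, Eef2 with 13363 and 13215 and Eef1a1 with 5021 and 5101. The next was Pabpc1 with 3716 and 3591. Npm1 had 1881 and 1515, Eef1d 1562 and 1752, and these neighbours in the order overlapped. Tpt1 came next with 928 and 780, Eef1g had 165 and 176, and Naca was lowest with 53.7 and 51.9. All other neighbours were separated by more than the gap between the replicates. Among 14534 coding transcripts ordered by this density Rack1 lay at the 99.97 percentile, and Eef1g and Naca at the 56.2 and 35.2 percentile. The members with the highest share of ambiguous words, Tpt1 and Eef1g, were among the lowest 3. The density divides by the whole ORF length, although reads with more than 1 match were left out. The share of ambiguous words was 7.16% for Rack1 and 88.9% for Eef1a1, so this order cannot be read as an order of translation.

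Together the 10 ORFs took 1.05% and 1.11% of the control footprints on coding ORFs, against 0.629% and 0.619% of the transcriptome reads. Rack1 and Eef2 supply most of these sums. In the DMDA-PatA libraries they took 0.736% and 0.728%, in those of harringtonine 1.01% and 1.05%, and in those of puromycin 1.13% and 1.30%. The DMDA-PatA libraries were the lowest of the 8, and this share does not depend on the spike-in. It was not tested, as it is a single sum over 2 libraries for each condition.

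Translation efficiency in untreated cells was measured as control footprints over transcriptome reads on the ORF, each as CPM, that is counts scaled to the same total on coding ORFs, so that 0 on the log2 scale is the average ORF weighted by its reads. The log2 ratio was above 0 for 9 members, Tpt1 included, and below it for 1, Naca, by edgeR's quasi-likelihood test with an adjusted p of at most 0.05. Of all 13717 coding transcripts tested, 29.9% were above and 41.2% below. The members' median log2 ratio was 0.90, against -0.19 for all transcripts. Npm1 had the highest measured ratio, 2.76, with 154 and 138 CPM of footprints against 56.9 and 48.5 CPM in the transcriptome, a log2 ratio of 1.47 (standard error 0.12). Eef1d followed with a log2 ratio of 1.23, Eef1a1 with 1.04, Eef1b2 with 1.02, Rack1 and Eef1g with 0.77, Eef2 with 0.70 and Pabpc1 with 0.54, with standard errors between 0.09 and 0.15. Of the ORF words 86.8% were ambiguous for Npm1, 88.9% for Eef1a1 and 95.3% for Eef1g. The standard errors do not cover this, and its part in these ratios and their order was not tested. Naca had 32.8 and 35.4 CPM of footprints against 70.0 and 81.1 CPM in the transcriptome, a log2 ratio of -1.15 (standard error 0.12). Since the listed ORF is that of the long Naca isoform, this ratio joins the reads of several isoforms.

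No transcriptome read was listed on the Tpt1 ORF in either library, although the control libraries had 406 and 444 reads there. Set against a floor of 3 reads in each transcriptome library, its CPM of footprints was at least 334-fold higher, a bound that covers counting error only. The transcriptome libraries did hold Tpt1 reads outside the ORF, 450 and 335 normalized reads on the 5' UTR. All 30-base words of this ORF were ambiguous, and their part in this result was not tested. The Tpt1 ratio is therefore no measure of translation efficiency. With Tpt1 at its bound the median of the 10 is 0.90 as before.

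**Figure D1:**
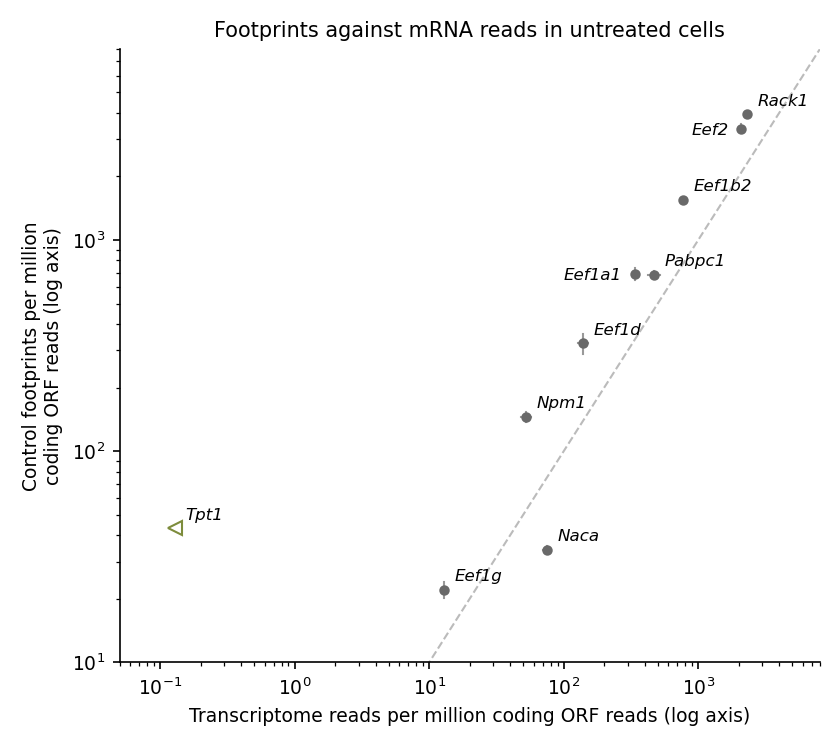
Control footprints (vertical axis) against transcriptome reads (horizontal axis) on the ORF of each of the 10 mRNAs, both as CPM of coding ORFs and on log axes. Points are means of 2 libraries, grey lines join the replicates, the dashed line marks a ratio of 1 and the open triangle is Tpt1, drawn at the floor of 3 reads; Naca lies below the dashed line and the other 8 measured members lie above it.

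The main question was how far each drug lowers the footprints of these mRNAs. DMDA-PatA lowered the ORF footprints of all 10 by the edgeR test, with log2 fold changes from -4.27 for Eef1b2 to -6.68 for Pabpc1. This test called 99.3% of all 12499 features tested lower, so the count of members says nothing particular to them. The median of the members was -4.88 and that of all features -4.32. Relative to the median of all features 9 members were lower and 1, Eef1b2, was higher, a split that a scaling of whole libraries cannot change. Scaling to equal total reads takes out the common fall by construction, and 5 members were then called lower and 0 higher, against 19.6% and 21.6% of all features, while Eef1b2 turned to 0.087 on the log2 scale.

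Pabpc1 had the largest fall with DMDA-PatA. Its ORF carried 7091 and 6851 normalized footprints in untreated cells but only 54.3 and 82.0 after DMDA-PatA, a 102-fold lower mean. Harringtonine left 1604 and 1141 and puromycin 3600 and 3498, so the groups did not overlap and the order from low to high was DMDA-PatA, harringtonine, puromycin, control. The log2 fold changes were -6.68 (standard error 0.58), -2.34 (0.47) and -0.97 (0.45), and the last was called lower with an adjusted p of 0.0362 in edgeR. That call was lost when any 1 control or puromycin library was left out, with adjusted p between 0.127 and 0.166 in edgeR. With TMM scaling the harringtonine and puromycin changes of Pabpc1 turned positive, to 0.53 and 1.48, whereas that with DMDA-PatA stayed negative.

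The difference between DMDA-PatA and puromycin was larger for Pabpc1 than for any other member. Among coding ORFs from 20% shorter to 25% longer with at least 100 control footprints and transcriptome reads, its kept share with DMDA-PatA, 0.977%, lay at the 1.48 percentile of 1897 transcripts. With puromycin it kept 50.9% and lay at the 99.2 percentile of the same transcripts. With harringtonine it kept 19.7% and lay at the 88.6 percentile.

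Eef1a1 had the largest fall by the means with harringtonine and with puromycin, although its order against Eef1g was not separated beyond their standard errors. From 6959 and 7070 in untreated cells it went to 104 and 144 after DMDA-PatA, to 91.3 and 60.9 after harringtonine and to 43.4 and 78.3 after puromycin. It was 56.6-fold lower with DMDA-PatA, 92.2-fold with harringtonine and 115-fold with puromycin by the means. The log2 fold changes were -5.82 (standard error 0.55), -6.53 (0.57) and -6.82 (0.59). It kept 1.09% of its footprints with harringtonine and 0.868% with puromycin, at the 0.427 and 0.285 percentile of 2107 transcripts with ORFs of similar length, whose medians were 11.7% and 15.6%. With DMDA-PatA it kept 1.77%, at the 8.92 percentile. Its ORF had 21 and 63 reads in the puromycin libraries, so these shares rest on few reads. The harringtonine and puromycin values overlapped.

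Eef1g, the other subunit with few unambiguous positions, also fell with each drug, from a far lower level. It had 217 and 230 footprints before treatment, 3.79 and 5.68 after DMDA-PatA, 7.10 and 1.40 after harringtonine and 8.27 and 0 after puromycin. In reads these were 6 and 7, then 7 and 2, then 4 and 0. The log2 fold changes were -5.55 (standard error 0.57), -5.82 (0.59) and -6.06 (0.67). At these counts no difference between the drugs was detectable.

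Eef1b2, the exchange factor that reloads Eef1a1 with GTP, kept the largest share of its footprints with DMDA-PatA. It had 16983 and 14671 footprints before treatment, 652 and 992 after DMDA-PatA, 7622 and 5259 after harringtonine and 5279 and 6636 after puromycin. The fall was 19.3-fold with DMDA-PatA but only 2.46-fold with harringtonine and 2.66-fold with puromycin. The log2 fold changes of the last 2 were -1.30 (standard error 0.47, adjusted p = 0.00609 in edgeR) and -1.41 (0.47, adjusted p = 0.00327 in edgeR). Without replicate 1 of the control the harringtonine call was lost (adjusted p = 0.0677 in edgeR), and without replicate 1 of puromycin the puromycin call (adjusted p = 0.0756 in edgeR). Both turned positive with TMM scaling, to 1.58 and 1.05.

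Eef1d had 3093 and 3468 footprints before treatment, 122 and 165 after DMDA-PatA, 257 and 140 after harringtonine and 331 and 429 after puromycin. It encodes another exchange subunit of the same complex. Its log2 fold changes were -4.52 (standard error 0.51), -4.05 (0.50) and -3.11 (0.48), and the DMDA-PatA and harringtonine values overlapped. The 4 subunits of elongation factor 1 therefore spanned from 1.09% to 40.7% of footprints kept with harringtonine and from 0.868% to 37.6% with puromycin, but only from 1.77% to 5.19% with DMDA-PatA.

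Eef2 had the second highest footprint number of the 10 in the control, 34397 and 34016. It had 833 and 1420 after DMDA-PatA, 2482 and 1207 after harringtonine and 1690 and 2564 after puromycin, and the DMDA-PatA and harringtonine values overlapped. It kept 3.29%, 5.39% and 6.22% of its footprints, at the 42.9, 23.5 and 15.8 percentile of 1470 transcripts of similar ORF length.

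Rack1, with the most listed footprints of the 10 in the control, had 41744 and 38491 before treatment. It had 1022 and 1515 after DMDA-PatA, 6793 and 3951 after harringtonine and 8104 and 10453 after puromycin. All 4 groups were separate. The log2 fold changes were -4.98 (standard error 0.55), -2.90 (0.50) and -2.11 (0.48). Among all members it lay closest to the members' median of the 3 changes, at a distance of 0.37 on the log2 scale, whereas Eef1a1 lay 6.02 and Eef1g 4.95 away.

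Npm1 had 1648 and 1327 footprints before treatment, 58.1 and 61.7 after DMDA-PatA, 516 and 170 after harringtonine and 1088 and 1142 after puromycin. Its log2 fold change with puromycin, -0.42 with a 95% interval from -1.27 to 0.44 by its standard error, had an adjusted p of 0.354 in edgeR and was not called. The puromycin values nevertheless lay below both control values, and the kept share of 74.9% was at the 99.0 percentile of 1515 transcripts of similar ORF length. With DMDA-PatA and harringtonine the log2 fold changes were -4.63 (standard error 0.51) and -2.12 (0.46), and the 2 harringtonine libraries stood far apart.

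Tpt1, with the shortest ORF, kept most of its footprints with harringtonine. It had 479 and 402 in the control, 11.4 and 19.5 after DMDA-PatA, 371 and 241 after harringtonine and 172 and 188 after puromycin. The log2 fold change with harringtonine was -0.53 with a 95% interval from -1.35 to 0.30 and was not called, with an adjusted p of 0.219 in edgeR. The call was made with the size factors swapped between DMDA-PatA and harringtonine, at -0.79 (adjusted p = 0.00115 in edgeR), and without replicate 1 of harringtonine, at -0.87 (adjusted p = 0.0183 in edgeR). The changes with DMDA-PatA and puromycin were -4.84 (standard error 0.52) and -1.29 (0.43). The puromycin call was lost without replicate 1 of the control (adjusted p = 0.0688 in edgeR) or of puromycin (adjusted p = 0.0596 in edgeR).

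Naca had 352 and 341 footprints before treatment, 12.0 and 18.7 after DMDA-PatA, 91.3 and 91.7 after harringtonine and 45.5 and 69.6 after puromycin. The log2 fold changes were -4.50 (standard error 0.50), -1.92 (0.43) and -2.57 (0.46). It kept 26.4% of its footprints with harringtonine, at the 98.2 percentile of 278 transcripts with ORFs of similar length, whose median was 6.40%. As the length is that of the long isoform, this comparison holds for the listed ORF only.

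**Figure D2:**
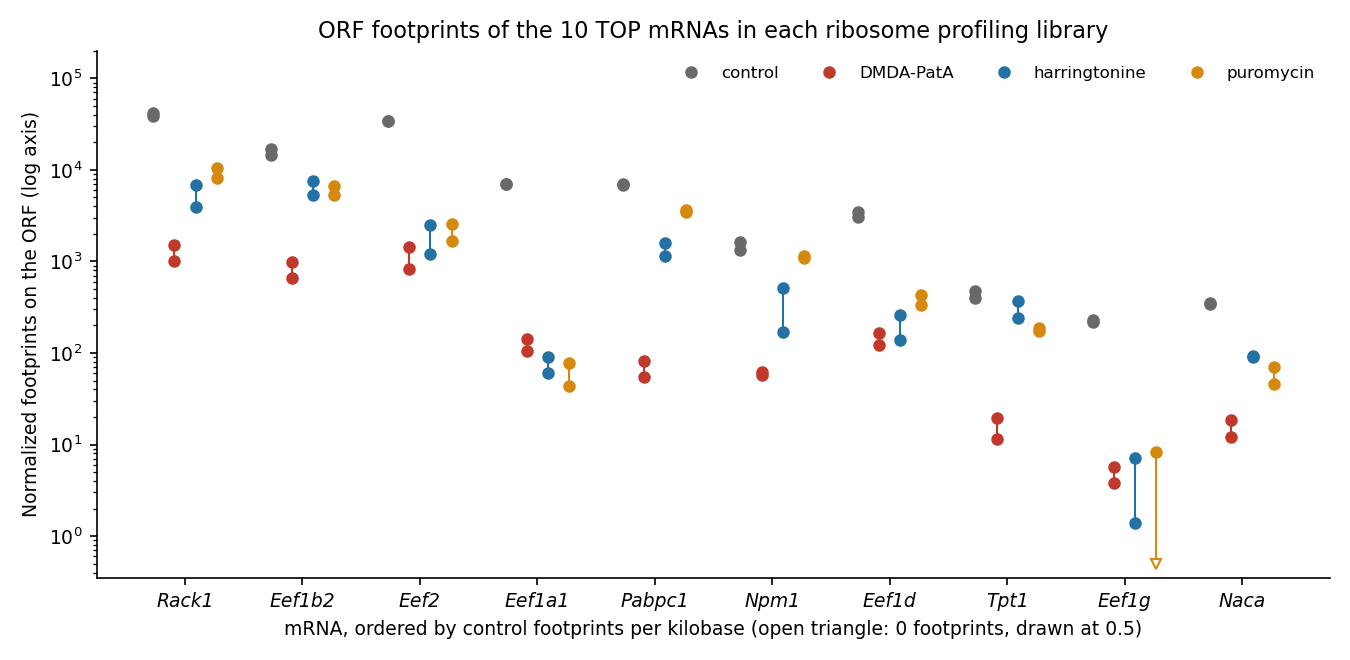
Normalized footprints on the ORF (log axis) of the 10 mRNAs, ordered by control footprints per kilobase, with 1 point for each library, a line joining the 2 replicates and an open triangle for 0 footprints. On the spike-in scale all drug values lie below the control values of the same mRNA, from 0 to 10453 footprints against 217 to 41744, but with equal totals the direction turns for Eef1b2 with each drug, for Npm1, Tpt1 and Pabpc1 with harringtonine and puromycin, for Naca with harringtonine and for Rack1 with puromycin. How many of all ORFs separate in this way was not counted.

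Harringtonine lowered 9 of the 10 members and puromycin 9 of the 10, against 92.9% and 90.1% of all features called lower, shares that are near those of the members, and with TMM scaling 4 members were lower and 5 higher with harringtonine, and 4 lower and 4 higher with puromycin. The shares of all features called with TMM were 30.0% lower and 26.6% higher with harringtonine, and 24.9% lower and 24.3% higher with puromycin. For harringtonine the median over the members was -2.62 on the log2 scale against -2.97 for all features, and for puromycin -2.34 against -2.48. TMM scaling, which centres them by construction, moved these medians of all features to -0.12 and -0.04, and that of DMDA-PatA to -0.12. Relative to them 6 members were higher and 4 lower with harringtonine, and 5 and 5 with puromycin. In fold inhibition of the means the median member was at 29.5 after DMDA-PatA, 6.27 after harringtonine and 5.17 after puromycin. The same-numbered libraries gave 41.1 and 22.7 for DMDA-PatA, 5.28 and 8.77 for harringtonine and 6.45 and 4.29 for puromycin.

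The members thus spread more widely with harringtonine and puromycin than with DMDA-PatA. The share of footprints kept ran from 0.977% to 5.19% with DMDA-PatA, from 1.09% to 69.5% with harringtonine and from 0.868% to 74.9% with puromycin. The lowest shares with the last 2 drugs were those of Eef1a1, and the highest those of Tpt1 and Npm1. Of their ORF words 88.9%, 100% and 86.8% were ambiguous. Without these ORFs and that of Eef1g, the ranges were 0.977% to 5.19%, 5.39% to 40.7% and 6.22% to 50.9% in the same order of drugs. The spread of all coding transcripts was not set beside these ranges. Against the median of ORFs of similar length, 8 members kept less after DMDA-PatA, 5 after harringtonine and 4 after puromycin. With DMDA-PatA Eef1d and Naca did not, at 4.37% and 4.42% against medians of 3.85% and 3.76%. Both are listed with the ORF of a long isoform, and these counts and the correlations that follow use the listed lengths. Across the 10 members Spearman's rank correlation of the kept share with ORF length was -0.08 after DMDA-PatA, -0.44 after harringtonine and -0.47 after puromycin. It is a description over 10 mRNAs measured in the same libraries.

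**Figure D3:**
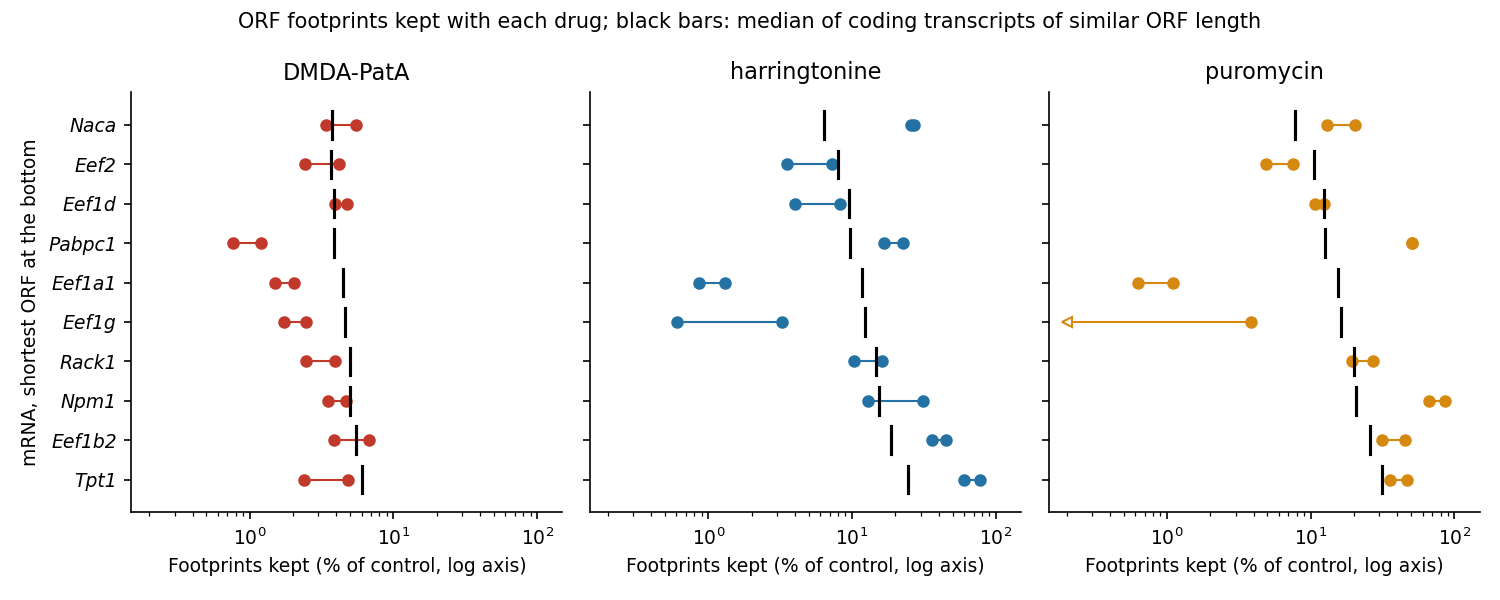
Share of control ORF footprints kept with each drug (log axis, in percent) for the 10 mRNAs, ordered by ORF length with the shortest at the bottom. Points are the ratios of same-numbered libraries, lines join them, open triangles mark 0 and black bars the median of coding transcripts with ORFs of similar length; Pabpc1 lies left of its bar with DMDA-PatA (0.977%) and right of it with puromycin (50.9%), and Eef1a1 lies left of it in all 3 panels.

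The drugs were also tested against each other, although their doses differ in kind and puromycin was given for longer. Fewer footprints remained with DMDA-PatA than with harringtonine on 6 members, Eef1b2, Tpt1, Pabpc1, Npm1, Naca and Rack1, against 52.8% of all features. The log2 differences ran from -2.08 for Rack1 to -4.33 for Pabpc1 and -4.32 for Tpt1. Other members were called higher under other scalings, with 6 lower and 3 higher with TMM, 5 and 3 with equal totals, where the Rack1 call was lost (adjusted p = 0.0951 in edgeR), and 6 and 1 with swapped size factors. Of all features 18.0% were lower and 15.8% higher with TMM, 12.5% and 23.9% with equal totals, and 44.3% and 2.92% with swapped factors. Fewer footprints remained with DMDA-PatA than with puromycin on 7, against 67.4% of all features, namely the 6 named above and Eef1d. These ran from -1.41 for Eef1d (adjusted p = 0.00422 in edgeR) to -5.70 for Pabpc1 and -4.22 for Npm1. With TMM 5 were lower and 3 higher, with equal totals 5 and 4, with DESeq2, with swapped factors or without either harringtonine library 8 and 1, and with limma 7 and 1. The shares of all features were 19.1% lower and 17.8% higher with TMM, 16.2% and 21.2% with equal totals, and 68.8% and 1.08% with swapped factors. Naca lost its call with TMM (adjusted p = 0.703 in edgeR) and with equal totals (adjusted p = 0.933 in edgeR). The Eef1d difference turned to 0.36 with TMM scaling and was lost without replicate 1 of DMDA-PatA or replicate 2 of puromycin.

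Harringtonine left fewer footprints than puromycin on 2 members, against 9.94% of all features. These were Npm1, with a log2 difference of -1.70 (standard error 0.45, adjusted p = 0.00439 in edgeR), and Pabpc1, with -1.37 (0.46, adjusted p = 0.0313 in edgeR). In edgeR the count was 0 without either puromycin library, 1 without either control library, 4 without replicate 1 of harringtonine, and without replicate 2 of harringtonine 0 were lower and 1 higher. It was 4 with the size factors swapped between DMDA-PatA and harringtonine, where 37.6% of all features were lower.

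Footprints on the 5' UTR followed another course. The Eef1a1 5' UTR had no footprint in the control and at most 6 reads in a drug library and was not tested, so 9 members remain. Harringtonine raised 7 of the 9, against 35.1% of the 6647 5' UTRs tested, and none fell. The members' median log2 fold change was 2.06 and that of all 5' UTRs 0.88. With TMM scaling, which moved the latter to 0.15, 6 of the 9 were called higher, against 21.2% of all 5' UTRs.

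Eef2 had the largest rise, from 86.1 and 86.1 footprints in the control to 1751 and 1322 with harringtonine, a rise of 4.16 on the log2 scale with a standard error of 0.50. Npm1 rose from 139 and 112 to 1046 and 962, a change of 3.0 (0.47), and Rack1 from 670 and 688 to 3946 and 2424, a change of 2.23 (0.45). Tpt1 rose from 15.3 and 17.2 to 98.4 and 60.9, Naca from 224 and 244 to 903 and 809, and Eef1b2 from 166 and 222 to 574 and 721. In each of these 6 mRNAs the harringtonine values lay above both control values. How many of all 5' UTRs separate in this way was not counted. Eef1d was also called higher, at 25.4 and 11.2 against 7.07 and 1.81, but on 8 control reads in all. The Eef1d call was lost with DESeq2 (adjusted p = 0.213), without replicate 2 of the control (adjusted p = 0.282 in edgeR) and without replicate 1 of harringtonine (adjusted p = 0.210 in edgeR), and the Eef1b2 call without replicate 1 of the control (adjusted p = 0.0640 in edgeR). Eef1g at 251 and 183 against 176 and 133 and Pabpc1 at 1999 and 1439 against 1383 and 1182 did not pass the test.

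DMDA-PatA raised 3 of the 9 5' UTRs and lowered 1, against 14.7% raised and 29.0% lowered over all 5' UTRs. Pabpc1 was the one that fell, from 1383 and 1182 footprints to 212 and 287, which is -2.36 on the log2 scale with a standard error of 0.45 (adjusted p = 2.68e-06 in edgeR), and with equal totals this turned to 2.01. Naca rose to 568 and 808, a change of 1.56 (0.44), on a listed 5' UTR that is longer than in GENCODE M21. Eef2 rose to 125 and 232, a change of 1.05 (0.45), and Eef1d to 9.47 and 64.9, a change of 3.09 (0.68). The Eef1d call rested on replicate 2 of DMDA-PatA, without which it was lost (adjusted p = 0.263 in edgeR), as was that of Eef2 (adjusted p = 0.0472 with and 0.363 without it in edgeR). The Eef2 call was also lost without either control or either puromycin library (adjusted p between 0.0731 and 0.216 in edgeR), with no filter on low counts (adjusted p = 0.0659 in edgeR) and with limma (adjusted p = 0.0548). The Naca call was lost without replicate 1 of the control (adjusted p = 0.0672 in edgeR). The count of calls was 2 without that library or without replicate 1 of the control. Relative to the median of all 5' UTRs, -0.48, 8 of the 9 members were higher. The direction of Eef2 is opposite to the authors' account, which describes a strong reduction of its 5' UTR footprints with DMDA-PatA. In a comparison of 5' UTRs they clipped the last bases before the start codon, whereas the deposited 5' UTR values were used here as they stand. The part of this in the difference was not tested.

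Puromycin changed no 5' UTR of the 9 in edgeR, against 0.557% raised and 0.406% lowered over all 5' UTRs. At an unadjusted p under 0.05 there were 2, and DESeq2 and limma each called 1. That was Eef1b2, whose values of 51.7 and 80.8 lay below the 166 and 222 of the control, a change of -1.53 on the log2 scale with a standard error of 0.47 (adjusted p = 0.0809 in edgeR and 0.0419 in DESeq2). With equal totals all 9 were called higher, as were most 5' UTRs.

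**Figure D4:**
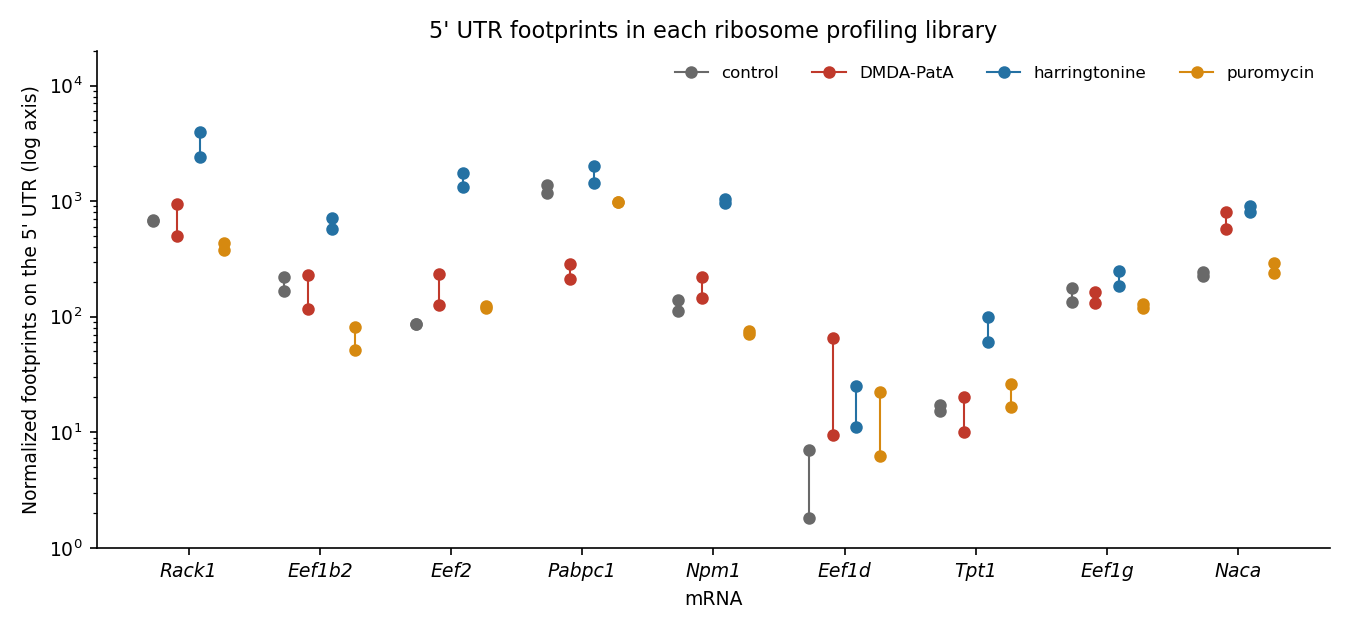
Normalized footprints on the 5' UTR (log axis) of the 9 mRNAs tested, with 1 point for each library and a line joining the 2 replicates. The harringtonine values lie above both control values in all 9, from 11.2 to 3946 footprints against 1.81 to 1383 on the spike-in scale, with Pabpc1 and Eef1g turning negative with TMM scaling, and the DMDA-PatA values of Pabpc1 lie below its control values on the spike-in scale but not with equal totals. How many of all 5' UTRs separate in this way was not counted.

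The number of 5' UTR footprints relative to the ORF was tested within each library, so that neither the spike-in nor the depth enters it. DMDA-PatA and harringtonine each raised it in all 9 members. Over all 6497 transcripts tested it rose in 93.6% with DMDA-PatA and in 95.4% with harringtonine, so this count is near the background. The members' median change was 5.12 and 5.14 on the log2 scale, and that of all transcripts 4.36 and 4.00. Puromycin raised it in 6 of the 9, against 78.3% of all transcripts, and the members' median of 1.69 was below that of all transcripts, 2.55.

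The largest change was that of Eef2 with harringtonine. Its 5' UTR share of 5' UTR and ORF footprints was 0.250% and 0.253% in the control and 41.4% and 52.3% with harringtonine, a log2 change of the ratio of 8.45 (standard error 0.44, adjusted p = 4.14e-12 in edgeR). The DMDA-PatA share was 13.0% and 14.0%, and with puromycin 6.63% and 4.63%. Rack1 showed a like share with DMDA-PatA, 33.0% and 38.6%, and with harringtonine, 36.7% and 38.0%, against 1.58% and 1.76% in the control. Its share with puromycin was 5.13% and 3.51%, a call that was lost without either control library or without replicate 1 of puromycin (adjusted p between 0.0957 and 0.167 in edgeR).

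In Pabpc1 DMDA-PatA gave the higher share, 79.6% and 77.8%. The harringtonine libraries had 55.5% and 55.8%, those of puromycin 21.4% and 22.1% and the control 16.3% and 14.7%. In Tpt1 the shares stood in the same order, 47.1% and 51.0%, 20.95% and 20.2%, 8.79% and 12.2%, and 3.10% and 4.10%. The Tpt1 call with puromycin was lost without replicate 2 of puromycin (adjusted p = 0.0938 in edgeR). Npm1 had 7.78% and 7.81% in the control, 71.3% and 78.0% with DMDA-PatA and 66.9% and 85.0% with harringtonine, but 6.07% and 6.23% with puromycin. Its change with puromycin was -0.36 on the log2 scale and was not called, with an adjusted p of 0.411 in edgeR. Of the ORF words 51.5% were ambiguous in Pabpc1, 100% in Tpt1 and 86.8% in Npm1. Of the 5' UTR words 3.65%, 4.89% and 15.2% were. The part of this in the levels of these shares was not tested.

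The other subunits of elongation factor 1 differed in this share already in the control. Eef1g had 44.7% and 36.7% of its 5' UTR and ORF footprints on the 5' UTR in the control, where 95.3% of its ORF words but only 4.86% of its 5' UTR words were ambiguous, and between 93.4% and 100% with each drug. Eef1b2 had 0.969% and 1.49% in the control, 15.3% and 18.8% after DMDA-PatA, 7.01% and 12.1% after harringtonine and 0.970% and 1.20% after puromycin. The puromycin values of Eef1b2 did not pass the test, with a log2 change of -0.14 (adjusted p = 0.778 in edgeR). Eef1d had 0.228% and 0.0522%, 7.21% and 28.3%, 8.99% and 7.41%, and 1.84% and 4.96%. Its call with puromycin was lost without replicate 2 of puromycin (adjusted p = 0.0628 in edgeR). Naca had 38.9% and 41.7% in the control, 97.9% and 97.7% after DMDA-PatA, 90.8% and 89.8% after harringtonine and 83.9% and 80.6% after puromycin. Its 5' UTR is listed with 340 nt against 51 nt in GENCODE M21, and its ORF is that of a long isoform. The part of this in the Naca shares was not tested.

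**Figure D5:**
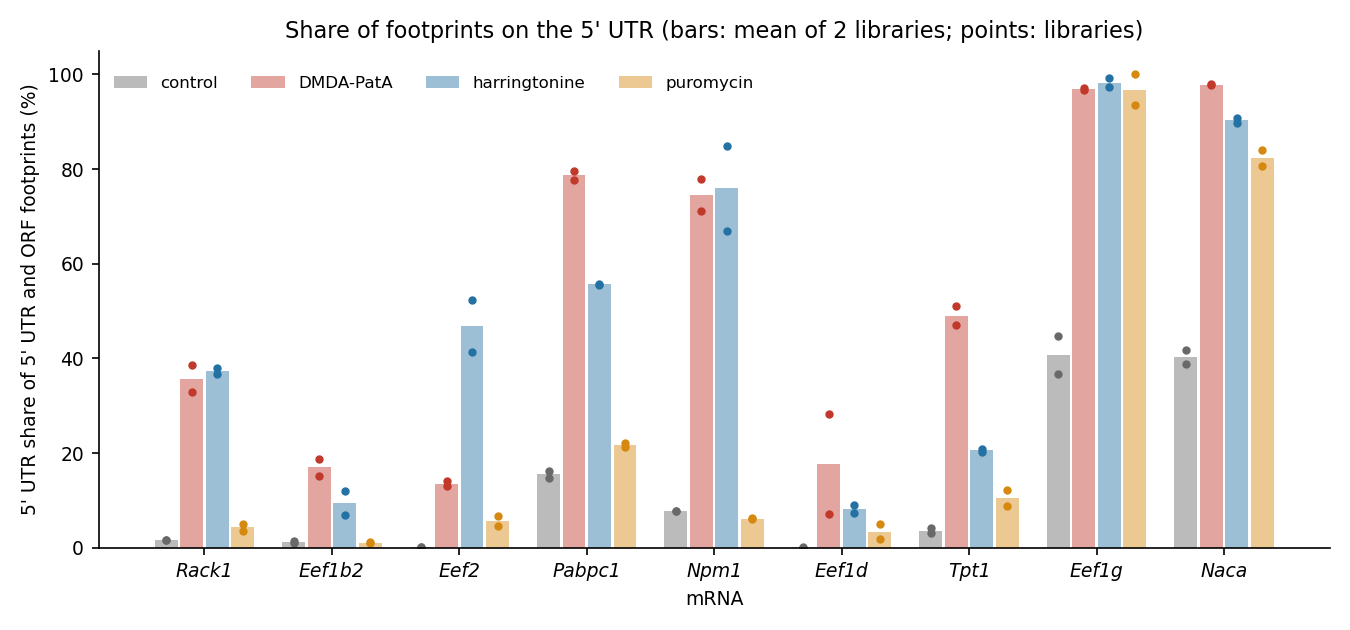
Share of 5' UTR footprints among 5' UTR and ORF footprints (percent) of the 9 mRNAs in each condition, with bars for the mean of 2 libraries and points for the libraries. With DMDA-PatA and harringtonine the share lies above the control in all 9, from 7.01% to 99.2% against 0.0522% to 44.7%, and with puromycin Npm1 lies at 6.07% and 6.23% below its control. How many of all transcripts separate in this way was not counted.

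Over the 10 members together the 5' UTR held 2.47% and 2.45% of the 5' UTR and ORF reads in the control, below the 4.01% and 4.27% of all coding transcripts. With DMDA-PatA it held 38.8% and 40.2%, close to the 38.2% and 38.6% of all coding transcripts, and with harringtonine 34.8% and 39.3%, against 29.1% and 32.8%. With puromycin it held 9.11% and 7.81%, against 20.4% and 17.7%. These sums are weighted to the members with the most reads, which differ between conditions, and were not tested.

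On the 3' UTR no more than 29 reads were listed for a member in a footprint library. Pabpc1 and Eef1a1 had none in any of the 10 libraries, transcriptome included, and 95.4% and 94.6% of their 3' UTR words were ambiguous. Eef2 had 14.1 and 4.53 footprints in the control and 29.4 and 14.0 with harringtonine, which overlap.

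Other mRNAs of the pathway were read from lists chosen by gene name. Of 8 further TOP mRNAs outside the ribosome, 7 were listed, and DMDA-PatA lowered 7, harringtonine 6 and puromycin 7 of them on the ORF. Of all 12499 features 99.3%, 92.9% and 90.1% were called lower with these drugs, so these counts say nothing particular to the list. The median log2 fold changes of the 7 were -4.16, -3.04 and -2.73. With DMDA-PatA they ran from -6.09 for Btf3, a partner of Naca, and -4.79 for the intermediate filament gene Vim to -3.52 and -3.49 for the initiation factor subunits Eif3e and Eif3f. Translation efficiency was above the average ORF in all 7, against 29.9% of the 13717 coding transcripts tested.

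Of 15 paralogs and partners of the members 14 were tested. DMDA-PatA lowered 14, harringtonine 12 and puromycin 13, against 99.3%, 92.9% and 90.1% of all features. The medians of the 14 were -4.48, -2.88 and -2.55. The lowest with DMDA-PatA were Pabpc4, at 129 and 112 control footprints against 1.26 and 0, and the Eef2 kinase Eef2k at -5.66, and the highest were Npm3 at -2.71 and Pabpn1 at -3.13. Pabpc4 had no footprint in either puromycin library, while Pabpc1 kept 50.9%. Of the 13 regulators of TOP mRNA translation DMDA-PatA lowered 13, harringtonine 10 and puromycin 12, against the same shares of all features. The lowest with DMDA-PatA were Eif4ebp2 at -6.39 and Tial1 at -5.59, and the highest Mtor, listed with a short ORF of 768 nt, at -3.15 and Eif4ebp1 at -3.22. Eif4ebp1 and Mtor had log2 fold changes of 0.02 and 0.01 with harringtonine, which did not pass the test.

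Of 71 listed cytosolic ribosomal protein mRNAs 37 passed the filter on reads. DMDA-PatA lowered 37, harringtonine 30 and puromycin 29, against 99.3%, 92.9% and 90.1% of all features. With each of the last 2 drugs 1 rose, against 0.512% and 0.352% of all features. The medians of the 37 were -4.26, -3.49 and -2.66. With DMDA-PatA the lowest was Rpl28 at -6.41 and the highest were Rps26 at -2.85 and Rps3 at -3.54. Of the 8 embryonic stem cell markers DMDA-PatA lowered 8, against 99.3% of all features. The median of the 8 was -4.78, from Zfp42 at -6.07 and Tdgf1 at -5.08 to Pou5f1 at -3.0 and Esrrb at -2.79. The markers of other cell types had a median of -4.58 over the 8 tested, from T at -5.56 and Thy1 at -5.28 to Cdx2 at -4.40 and Mixl1 at -2.62 among those with at least 100 control footprints.

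Among the coding transcripts whose 3 log2 fold changes lay nearest to the members' median, out of 2334 with at least 1000 control footprints, were Uck2 at a distance of 0.11, Ywhab at 0.21, and Ccng1 and Akap1 at 0.24. None of these is a member. They were picked from the 2334 for their small distance, so that each lay nearer than any of the 10 members says nothing about the members.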

How the data were processed

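Ribosome footprints of 4 conditions and the transcriptome of untreated CGR8 cells were measured in 10 libraries. The authors sequenced on a SOLiD instrument, aligned to mm10 with LifeScope, left out reads with several matches, low match quality or leading mismatches, kept footprints of 26 to 36 nt and selected 1 transcript for each gene. Picard 1.38 is named in the submitters' processing notes. The deposited values are a signal, read counts per region that the authors scaled to spike-in reads for footprints and by size factors between replicates for the transcriptome. Divided by the value that 1 read has in its library, 100% of the values above 0 came out whole within a tolerance of 0.01, which gave back the reads (in the transcriptome separately for each region).

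The recovered counts were tested with edgeR 4.0.16 (quasi-likelihood, Benjamini-Hochberg, adjusted p of 0.05) in R 4.3.3, with the authors' size factors as offsets, all 4 conditions in one fit and a filter of 10 or more reads in 2 or more libraries. The region ratio was fitted with the library as a block. The design had assumed counts; limma 3.58.1 on log2(value + 1) was added after the data were seen. Other alternatives were DESeq2 1.42.0, TMM, equal totals, an exchange of the size factors between DMDA-PatA and harringtonine as the study's supplementary means use them (which assignment is right is not settled here), no filter, each replicate left out and the replicate block. Only the ORF fit and the region ratio fit, each for DMDA-PatA against control, were tested on simulated counts. Words of 30 bases were counted on 22 sequences of GRCm38. The remaining work was done in Python 3.11.15 with matplotlib 3.10.9, numba 0.67.0, numpy 2.4.6 and pandas 2.3.3. Symbols came from GENCODE M21 and matched 15074 of 15269 listed transcripts. The 5' UTR value was missing for 392 coding transcripts.

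The members and lists were chosen with earlier results of these data known. Lists are described by counts, the median and, by DMDA-PatA change among mRNAs with at least 100 control footprints, the 2 lowest and 2 highest. Some genes that these rules name are not reported here. The labels give 2 replicates for each condition, and p-values measure only the spread between these libraries. Depth is given above. Each standard error was derived as the absolute log2 change over the square root of edgeR's F statistic. The 95% intervals of log2 changes were built from these errors and include the spread between libraries. The floor of 3 reads covers counting error only. No comparison columns of the authors were used.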

Additional observations from a re-analysis of the deposited data

How the results depend on the processing

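Set against each alternative, a single member's value kept its direction and its side of the threshold 1356 times, lost the call 57 times, gained one 21 times and turned in sign 46 times. Many of these fits left out a library of a condition outside the contrast, where a value can hardly move. With TMM 54 values were kept, 8 lost the call, 4 gained one and 16 turned. With equal totals these numbers were 35, 8, 8 and 21. With equal total reads on coding ORFs the median fold inhibition of the members was 1.46 (DMDA-PatA), 0.963 (harringtonine) and 0.953 (puromycin), and it was 8.77 with harringtonine in the second same-numbered pair. The members called on the ORF with DMDA-PatA were 6 with TMM and 5 with equal totals. Of all features, 23.6% were lower and 18.8% higher with TMM, and 19.6% and 21.6% with equal totals. Between harringtonine and puromycin, 37.6% of all features were lower and 2.57% higher with exchanged factors. These shares were 12.6% and 13.2% with TMM, and 16.1% and 9.86% with equal totals. Between harringtonine and puromycin 4 were called with exchanged factors (all lower with harringtonine), 5 with TMM (3 lower, 2 higher), 6 with equal totals (4 lower, 2 higher) and 1 with the replicate block, and 0 to 4 with a replicate left out. On the 5' UTR 9 were called with equal totals for DMDA-PatA and for puromycin, 2 to 4 for DMDA-PatA and 0 to 1 for puromycin with a replicate left out, and for puromycin 1 with exchanged factors, with DESeq2 and with limma, and 2 with TMM.

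These log2 changes turned in sign. On the ORF with harringtonine, TMM gave Eef1b2 1.58, Naca 1.01, Npm1 0.63, Tpt1 2.34 and Pabpc1 0.53, and equal totals gave 1.43, 0.86, 0.49, 2.19 and 0.38. With puromycin, TMM gave Eef1b2 1.05, Npm1 2.04, Rack1 0.34, Tpt1 1.17 and Pabpc1 1.48, and equal totals gave 1.04, 2.04, 0.33, 1.16 and 1.47. With DMDA-PatA, equal totals gave Eef1b2 0.087. DMDA-PatA against puromycin on Eef1d was 0.36 with TMM and 0.51 with equal totals. On the 5' UTR with DMDA-PatA, TMM gave Eef1b2 0.36, Tpt1 0.43 and Eef1g 0.55, exchanged factors gave Tpt1 0.050 and Eef1g 0.19, and equal totals gave Eef1b2 4.13, Tpt1 4.17, Pabpc1 2.01 and Eef1g 4.32. With harringtonine, TMM gave Pabpc1 -0.32 and Eef1g -0.25. With puromycin, equal totals gave Eef1b2 0.90, Npm1 1.67, Rack1 1.71, Pabpc1 2.07 and Eef1g 2.13. TMM and equal totals remove a change common to all features by construction. With a replicate left out the 5' UTR change with DMDA-PatA ranged from -0.73 to 0.24 for Eef1b2, -0.43 to 0.49 for Rack1, -0.69 to 0.31 for Tpt1 and -0.25 to 0.15 for Eef1g, and the ratio of Eef1b2 with puromycin from -0.44 to 0.19. The cause was not tested.

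The labels share replicate numbers between conditions but do not say what a number marks. Deviations of same-numbered libraries correlated between -0.02 and 0.10 over 8532 coding transcripts. With the replicate block, Pabpc1 lost its ORF call with puromycin (adjusted p = 0.0683 in edgeR) and against harringtonine (adjusted p = 0.0845), Eef2 its 5' UTR call with DMDA-PatA (adjusted p = 0.0909) and Rack1 its ratio call with puromycin (adjusted p = 0.0526), and no other member's call changed. Where a condition is left with 1 library, that library is assumed to vary like the others. Depth limits, among others, the Eef1g ORF with drugs (at most 7 reads in a library), the ORFs of Tpt1 (18 and 24) and Naca (19 and 23) with DMDA-PatA, and the 5' UTRs of Eef1d (2 to 80) and Tpt1 (13 and 19 in the control).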
